A study of Mus musculus with 6 samples.

Results

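The Zfp genes of the mouse code for proteins named after zinc fingers, short folds in which a zinc ion holds the chain together so that it can touch DNA, RNA or another protein. The genes described here were all protein-coding genes whose symbol is Zfp followed by a number and whose mean level over the 6 libraries was at least 5 CPM (counts of a gene per 1000000 counts of its library). They were 220 of 344 protein-coding Zfp genes in a table of 21139 genes, and 124 Zfp genes lay under the level. They were chosen by their name and by this mean, which does not use the difference between groups, so their levels are given as a description.

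RNA was measured in CD4+ T cells from the spleen of C57BL/6J mice, activated for 2 days with antibodies to CD3 and CD28, in 2 groups of 3 libraries. Cells of the CpdA group received CpdA, an agonist of the fatty acid receptor Gpr120, at 20 µM (the labels write the unit as microm), and cells of the medium group had medium alone. The strain, the tissue and the activation were the same in both groups, and the stated question was how the gene profile differs with the agonist. The number and age of the animals and the origin of each library (a separate culture or not) were not given in the sources used here. P-values therefore measure spread between libraries, and that spread could be technical.

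Library totals ran from 20247761 to 25952169 counts. Pairs of libraries were compared over the genes with 10 or more counts in the 2 together. Libraries of 1 group differed from each other beyond sampling noise, with a chi-square of 2.13 to 3.95 for each degree of freedom. Between libraries of different groups it was 9.99 to 17.2. The summed CPM of 10 CD4 T cell markers was 3083 to 3152 in CpdA libraries and 3141 to 3194 in medium libraries, with 2 of the 10 higher and 6 lower. Summed markers of the other cell types a spleen sample can hold were, in CpdA libraries and then in medium libraries: CD8 T cells 7.33 to 9.40 and 7.99 to 8.84, B cells 103 to 115 and 98.1 to 106, NK cells 1.27 to 1.45 and 1.18 to 1.48, myeloid cells 4.32 to 4.48 and 5.16 to 6.17, and erythroid cells 0.635 to 0.963 and 0.494 to 1.23 CPM. Of the 7 myeloid markers, Adgre1, S100a8 and S100a9 were not in the table analysed and 2 others were called lower. Among the 6 B cell markers 1 was called higher, and no CD8 T cell, NK cell or erythroid marker was called. The part of these marker shifts in the Zfp results was not tested, and in bulk samples fewer cells of a type and less RNA per cell cannot be told apart.

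Most Zfp proteins carry C2H2 fingers, in which a pair of cysteines and a pair of histidines hold the zinc and a row of fingers reads a stretch of DNA. Many of them also carry a KRAB box, which binds the corepressor Trim28 (KAP1); Trim28 in turn brings the histone methyltransferase Setdb1 and HP1 proteins, and the loci that are silenced in this way include endogenous retroviruses. A few Zfp genes have other trades: the Zfp36 family carries CCCH fingers that bind AU-rich elements in messenger RNA, where it recruits the CCR4-NOT deadenylase and so limits cytokine output of T cells.

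The names were checked against the proteins. The C2H2 pattern was found in 213 of the 220 proteins, with a median of 10 fingers and a maximum of 36 in Zfp142. The 7 without it were Zfp36, Zfp36l1 and Zfp36l2, which had 2 CCCH patterns each, and Zfp330, Zfp703, Zfp839 and Zfp935. A KRAB pattern was found in 107 proteins, which had a median of 12 fingers, against a median of 7 in the 113 proteins without one. The name does not hold all genes of this kind: of 15724 other protein-coding genes in the table, 367 had a C2H2 pattern and 79 had a KRAB pattern with 3 or more fingers. The KRAB call rests on letters and misses boxes that depart from them.

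The control regions of 4 members are shown because these had the smallest p in each direction among called genes with an entry in the RefSeq promoter table (GRCm38.p6), Zfp516 left out. Zfp281 (chr1:136624651-136624900, plus strand) and Zfp141 (chr7:42505754-42506003, minus strand) were lower with CpdA, and Zfp592 (chr7:80993434-80993683, plus strand) and Zfp280b (chr10:76032362-76032611, plus strand) were higher. Each run holds the 250 bases before the start, 5′ to 3′ on the gene's strand, and the capitals mark the ETS core (CCGGAA), the GC box (GGGCGG), the CCAAT box (CCAAT) and the ZNF143 core (ACTACA) on either strand.
Zfp281: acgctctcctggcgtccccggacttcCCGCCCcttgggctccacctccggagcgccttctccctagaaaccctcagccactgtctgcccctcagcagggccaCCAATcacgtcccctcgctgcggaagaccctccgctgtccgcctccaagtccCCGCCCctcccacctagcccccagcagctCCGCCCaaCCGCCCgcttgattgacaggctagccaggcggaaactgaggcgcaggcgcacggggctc
Zfp141: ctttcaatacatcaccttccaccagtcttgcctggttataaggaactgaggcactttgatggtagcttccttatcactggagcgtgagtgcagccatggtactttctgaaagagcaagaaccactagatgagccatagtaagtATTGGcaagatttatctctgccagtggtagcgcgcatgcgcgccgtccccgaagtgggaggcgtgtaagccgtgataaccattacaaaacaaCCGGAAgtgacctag
Zfp592: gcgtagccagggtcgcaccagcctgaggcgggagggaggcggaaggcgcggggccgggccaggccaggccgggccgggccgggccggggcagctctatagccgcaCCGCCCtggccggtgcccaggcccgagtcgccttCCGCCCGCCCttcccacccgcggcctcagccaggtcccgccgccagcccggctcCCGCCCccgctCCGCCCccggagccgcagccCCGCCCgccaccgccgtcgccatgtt
Zfp280b: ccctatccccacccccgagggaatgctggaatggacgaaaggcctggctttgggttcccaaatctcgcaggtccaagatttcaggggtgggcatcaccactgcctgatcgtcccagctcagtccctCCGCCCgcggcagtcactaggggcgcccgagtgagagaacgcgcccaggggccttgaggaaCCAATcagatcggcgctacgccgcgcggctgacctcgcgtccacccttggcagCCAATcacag

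The Zfp281 run held 4 GC boxes and a CCAAT box and the Zfp592 run held 6 GC boxes. Zfp280b had 1 GC box and 2 CCAAT boxes, of which the nearer lay 10 bases before the start. Zfp141, the KRAB gene among the 4, had no GC box, an ETS core 15 bases before the start and a CCAAT box in the opposite direction. The runs of the lower gene Zfp281 and the higher gene Zfp592 were both rich in G and C, at 69.6% and 81.6%.

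Over the 184 members with an entry in the table, the GC box was found in 46.2% of promoters, against 63.1% of the promoters of 7198 other protein-coding genes of at least 5 CPM and 32.9% of all 27025 promoters. The CCAAT box was found in 48.4% of member promoters, against 36.6% and 34.5%, and the ETS core in 31.0%, against 25.6% and 12.2%. The ZNF143 core, the start of the element that the general promoter factor Zfp143 binds, was found in 21.2% of member promoters, against 10.02% and 9.20%. It was found in 26.6% of promoters of KRAB members and 15.6% of those of the other members. Promoters of members had a median G and C share of 55.6%, against 60.4% for the other expressed genes. Between directions the shares differed by few promoters: the ZNF143 core lay in 4 of 22 promoters of members called higher and in 4 of 18 of those called lower, and the GC box in 8 of 22 and in 9 of 18. These matches are letters in a window and say nothing of binding.

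Zfp genes were expressed at low levels. Their median was 17.4 CPM, against 41.0 CPM for all tested genes of at least 5 CPM. In FPKM (CPM per kilobase of gene) their median was 5.23, with 121 members under 20 CPM and 8 at 100 CPM or more. Per length, the highest was Zfp207 at 78.0 FPKM, followed by Zfp36l2 at 70.2, Zfp330 at 47.5, Zfp36 at 47.1 and Zfp622 at 32.7 FPKM; Zfp330 and Zfp36 lay within each other's spread. At the lower edge, Zfp661, Zfp867 and Zfp420 lay just inside at 5.27, 5.43 and 5.51 CPM, and Zfp580, Zfp560 and Zfp873 just outside at 4.98, 4.89 and 4.79 CPM. KRAB members were lower in level than the others, with a median of 12.3 CPM against 27.3 CPM.

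With CpdA, 24 Zfp genes rose and 25 fell, and none moved by as much as 1.5-fold. Among those that rose were Zfp472, Zfp84 and Zfp746, and among those that fell furthest were Zfp516, Zfp395 and Zfp473. Zfp36l1, the messenger RNA decay factor, and Zfp281, a GC-box binding regulator, were lower, and Zfp592, a chromatin adaptor, was higher. The calls were made at an adjusted p under 0.05 in a fit over all genes.

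The 49 calls were 22.3% of the members, with 10.9% higher and 11.4% lower. Over all 13507 genes tested 33.2% were called, 16.5% higher and 16.7% lower. Over the genes of at least 5 CPM 41.3% were called, 21.5% higher and 19.8% lower, so the share of Zfp genes called lay under both backgrounds. The CpdA and medium libraries did not overlap for 69 members (31.4%), of which 41 were higher and 28 lower, against 43.9% of all genes tested and 51.7% of those of at least 5 CPM. At an unadjusted p under 0.05 there were 71 members, a count for which no share over all genes was computed.

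The lower share held in each band of level. Among members of 5 to 10 CPM 10.2% were called, against 25.1% of all genes in the band. The shares were 16.7% against 28.1% at 10 to 20 CPM, 28.4% against 38.4% at 20 to 50 CPM and 40.6% against 52.4% at 50 CPM or more. Changes, including those given after rose by or fell by or beside an adjusted p, are log2 fold changes of CpdA over medium. Their median was 0.01 over members and 0.01 over genes of at least 5 CPM. The log2 fold changes of members spread less, with an SD of 0.16, against 0.21 for genes of at least 5 CPM. A change of 1.25-fold or more, called or not, was found for 9 members (4.09%), against 9.89% of genes of at least 5 CPM.

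**Figure D1:**
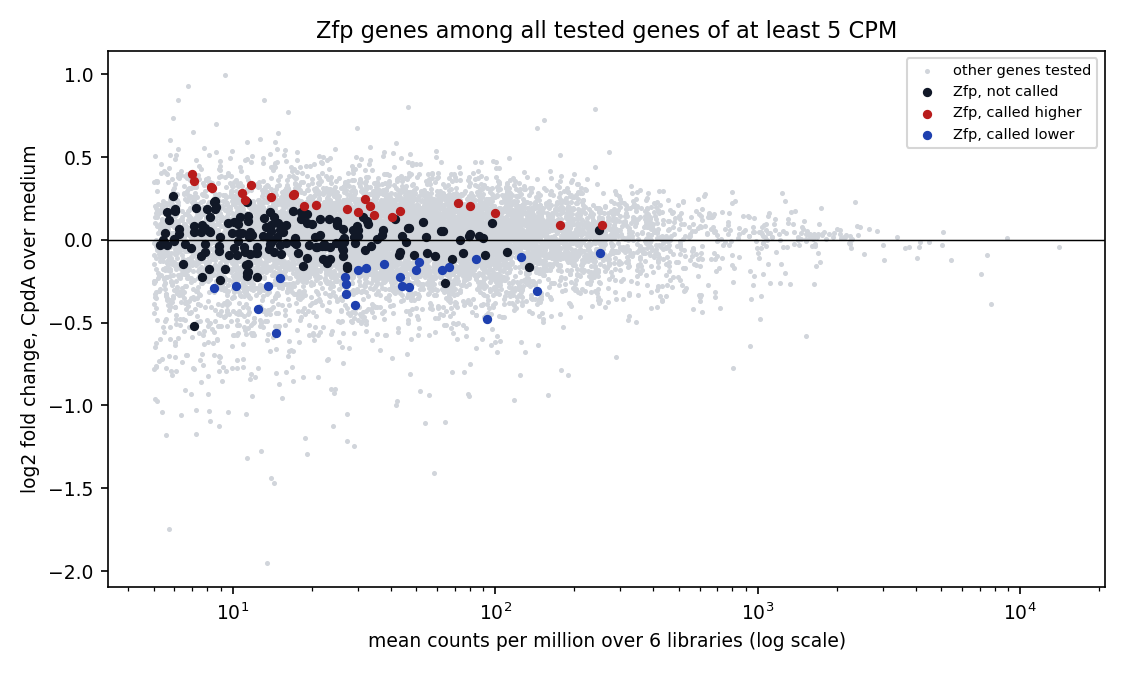
Log2 fold change of CpdA over medium (vertical) against mean CPM over 6 libraries (horizontal, log scale) for genes tested with a mean of at least 5 CPM. The 220 Zfp genes (24 called higher in red, 25 called lower in blue, the others in black) lie mostly at low levels and inside the cloud of other genes in grey.

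The summed CPM of the Zfp genes was 6584, 6681 and 6679 in CpdA libraries, against 6735, 6641 and 6693 in medium libraries. The groups overlapped, and the means of 6648 ± 55.4 and 6690 ± 47.4 CPM (SD, n = 3 each) did not differ beyond their spread (exact permutation p = 0.4, two-sided; 0.1 is the smallest that 3 against 3 allows). With TMM scaling, as used for the calls, the means were 6631 ± 59.4 and 6717 ± 47.3 CPM (SD, n = 3 each; CpdA minus medium -85.9 CPM, exact permutation p = 0.2, two-sided), and the groups still overlapped. The spread of a member between libraries of a group was small, with a median coefficient of variation of 4.86% with CpdA and 5.58% in medium.

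**Figure D2:**
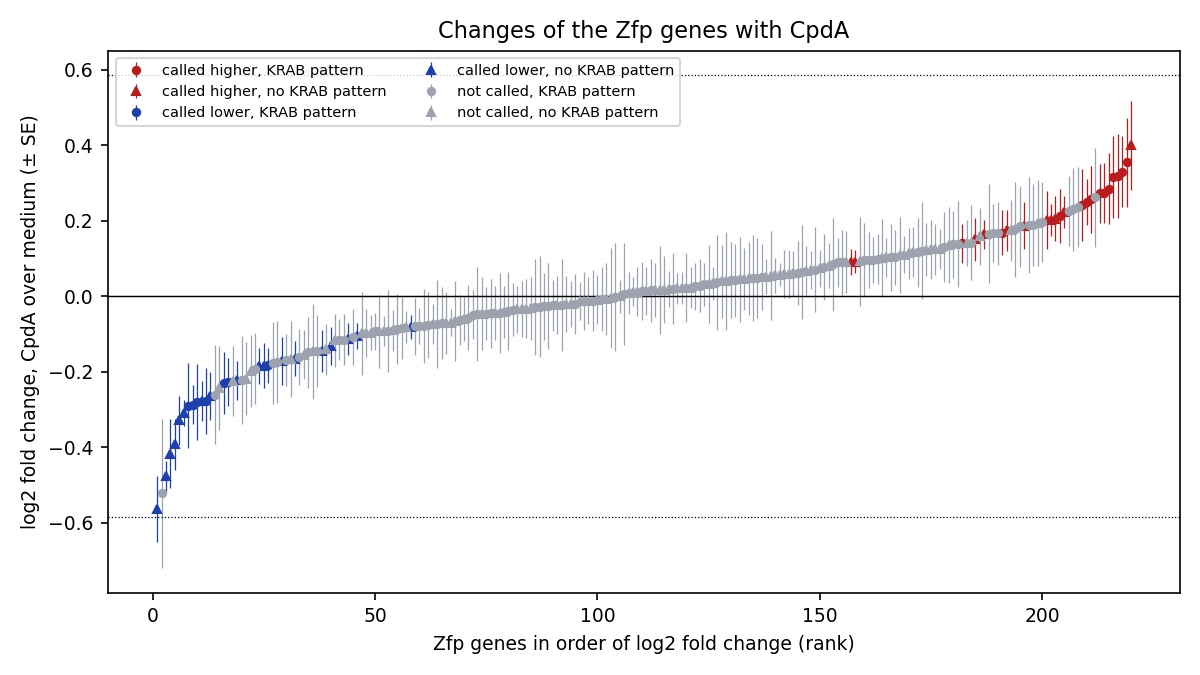
Log2 fold change of CpdA over medium with its SE (vertical) for the 220 Zfp genes in order of that change (horizontal); circles have a KRAB pattern and triangles do not. Called genes (red higher, blue lower) sit mainly at the ends, and all lie inside the dotted lines at 1.5-fold.

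Zfp516 (18:82910879-83005314, GRCm38) changed most of all called members. It activates the thermogenic programme of brown fat. Its level was 11.4, 13.1 and 10.8 CPM in CpdA libraries, against 17.7, 16.3 and 17.98 CPM in medium libraries. No CpdA library reached the lowest medium library, and the log2 fold change was -0.56 ± 0.09 (SE, adjusted p = 2e-06).

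Zfp395 (14:65358676-65398930, GRCm38) had the smallest p of all members. Its human counterpart ZNF395 is a factor induced by hypoxia. In CpdA libraries it had 78.8, 79.3 and 76.1 CPM, and in medium libraries 112.7, 104.9 and 106.4 CPM. The groups lay far apart relative to their spread, at 78.1 ± 1.75 and 108.0 ± 4.09 CPM (SD, n = 3 each), and the log2 fold change was -0.48 ± 0.04 (SE, adjusted p = 2e-12).

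Zfp473 codes for the protein ZFP100 of the U7 particle, which processes the ends of replication-dependent histone messages. It had 10.00, 10.5 and 11.7 CPM in CpdA libraries, against 14.3, 14.8 and 13.7 CPM in medium libraries. The groups did not overlap, and the log2 fold change was -0.42 ± 0.09 (SE, adjusted p = 0.00031).

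Zfp703, a corepressor of the NET family known from human breast cancer, had 25.4, 24.5 and 26.6 CPM in CpdA libraries, against 29.1, 36.3 and 34.0 CPM in medium libraries. The medium libraries varied more than the CpdA libraries, and the log2 fold change was -0.39 ± 0.07 (SE, adjusted p = 1.3e-05). Zfp526 fell by 0.33 on the log2 scale, to 24.1 ± 1.67 CPM in CpdA libraries, against 30.1 ± 0.603 CPM in medium libraries (SD, n = 3 each). Among KRAB genes, Zfp141 fell by 0.29, with 41.5, 43.0 and 42.3 CPM in CpdA libraries, against 55.5, 48.9 and 49.7 CPM in medium libraries, which did not overlap. Zfp780b (-0.29) and Zfp369 (-0.28) fell as well, but on fewer reads. Zfp780b missed the threshold without CpdA replicate 1 (-0.19) or 3 (-0.297) or without medium replicate 3 (-0.21), and Zfp369 without CpdA replicate 3 (-0.23) or medium replicate 1 (-0.22).

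Of the genes that rose furthest, Zfp518b led, with 8.27, 8.32 and 7.499 CPM in CpdA libraries, against 5.28, 6.18 and 6.61 CPM in medium libraries. The groups did not overlap, and the log2 fold change was 0.40 ± 0.12 (SE, adjusted p = 0.0072). All 9 that followed carry a KRAB pattern, as do 107 of the 220 members. KRAB members were lower in level, with a median of 12.3 CPM against 27.3 CPM for the others. Their split between higher and lower calls turned round with GC and length trends removed, as given below. Zfp808 had 7.43, 8.32 and 8.21 CPM in CpdA libraries, against 6.07, 5.58 and 6.999 CPM in medium libraries, and rose by 0.35 ± 0.12 on the log2 scale (SE, adjusted p = 0.017). Zfp472 had 12.8, 14.1 and 12.4 CPM in CpdA libraries, against 11.2, 9.64 and 10.2 CPM in medium libraries, and rose by 0.33 ± 0.09 (SE, adjusted p = 0.0054).

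Zfp746 (PARIS), a KRAB repressor that is a substrate of the ubiquitin ligase parkin, rose by 0.25, with 35.6, 33.2 and 35.6 CPM in CpdA libraries, against 27.4, 31.7 and 27.9 CPM in medium libraries. Zfp84 rose by 0.27, with 18.4, 18.7 and 18.5 CPM in CpdA libraries, against 16.2, 14.5 and 15.1 CPM in medium libraries. The CpdA libraries of Zfp84 had an SD of 0.165 CPM (n = 3) and lay above every medium library. Zfp764 and Zfp758 (both 0.32), Zfp933 (0.28), Zfp568 (0.27) and Zfp961 (0.26) complete the 10.

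Several of these rises were marginal. Zfp518b missed the threshold without medium replicate 1 (0.32), Zfp568 without CpdA replicate 3 (0.20) and Zfp933 without CpdA replicate 3 (0.25) or medium replicate 3 (0.27). Zfp808 missed it without CpdA replicate 2 (0.32) or 3 (0.34) or medium replicate 2 (0.28), and Zfp961 without CpdA replicate 2 (0.22) or medium replicate 1 (0.25) or 2 (0.18). Zfp764 and Zfp758 missed it without CpdA replicate 1 (0.29 each) or 3 (0.32 each) and without medium replicate 1 (0.23 and 0.27), Zfp764 also without medium replicate 3 (0.33) and Zfp758 without medium replicate 2 (0.26). Over all members, the calls higher numbered 12 without CpdA replicate 3, against 24 with all libraries. Over all genes tested they numbered 1815 and 2231.

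Of the 49 called members, 17 were called in the same direction under all 14 alternatives that refit the genes, 11 lower and 6 higher. The lower ones were Zfp516, Zfp395, Zfp473, Zfp703, Zfp526, Zfp281, Zfp141, Zfp36l1, Zfp12, Zfp260 and Zfp52, and the higher ones were Zfp706, Zfp280b, Zfp592, Zfp746, Zfp84 and Zfp472. How many of all called genes were kept in this way was not counted, so neither the share nor its split by direction has a background. Under DESeq2, Zfp36, Zfp91, Zfp106, Zfp687, Zfp758, Zfp764, Zfp780b, Zfp808, Zfp830, Zfp932 and Zfp961 missed the threshold, and with GC and length trends removed so did Zfp36, Zfp106, Zfp207, Zfp609, Zfp687, Zfp758, Zfp808, Zfp932 and Zfp961. With the replicate block Zfp36, Zfp91, Zfp106, Zfp207, Zfp609, Zfp780b, Zfp830 and Zfp932 missed it, under limma-voom Zfp106, Zfp780b and Zfp932, with no count filter Zfp106 and Zfp932, and with library size alone Zfp36 and Zfp106; these lists cover the named genes. Zfp12, Zfp52, Zfp706 and Zfp280b lie outside the rule for named genes and are given after their values were seen. Zfp280b had 86.3, 86.2 and 86.2 CPM in CpdA libraries, against 71.1, 75.6 and 76.5 CPM in medium libraries, and rose by 0.20 ± 0.04 (SE, adjusted p = 0.00016). Also chosen after its values were seen, Zfp335, which T cells need to mature in the thymus, fell by 0.18 on the log2 scale, with 47.3, 46.8 and 46.8 CPM in CpdA libraries, against 53.3, 53.1 and 52.5 CPM in medium libraries. Zfp335 was called lower in the main fit (adjusted p = 0.0024, edgeR) but is not among the 17 called under all alternatives.

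**Figure D3:**
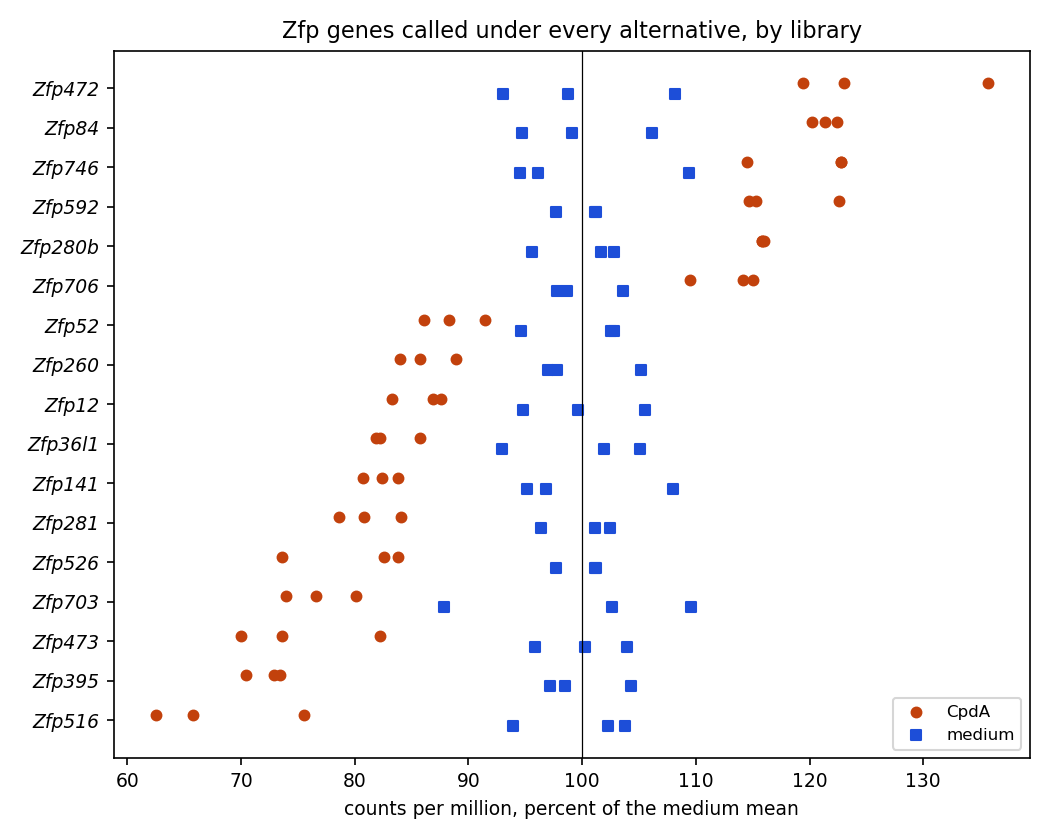
CPM in each library as a percent of the gene's medium mean (horizontal) for the 17 Zfp genes that were called under every alternative (vertical); circles are CpdA libraries and squares medium libraries. In each gene the 3 circles lie on one side of the 3 squares, for 11 genes to the left and for 6 to the right.

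Of the messenger RNA decay factors, Zfp36l1 and Zfp36 were called lower and Zfp36l2 did not pass. Zfp36l1 (12:80107760-80113013, GRCm38) had 41.2, 39.5 and 39.3 CPM in CpdA libraries, against 44.6, 50.4 and 48.9 CPM in medium libraries. The groups did not overlap, and it fell by 0.28 ± 0.05 on the log2 scale (SE, adjusted p = 6.5e-05). Zfp36, which codes for tristetraprolin, had 83.7, 80.9 and 79.8 CPM in CpdA libraries, against 91.4, 89.3 and 81.8 CPM in medium libraries. Here the groups overlapped and the log2 fold change was -0.11 ± 0.04 (SE, adjusted p = 0.038), a call lost without CpdA replicate 2 (-0.11) or 3 (-0.09) and without medium replicate 1 (-0.08) or 2 (-0.10).

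Zfp36l2, per length the most abundant of the family, had 253, 253 and 255 CPM in CpdA libraries, against 239, 245 and 242 CPM in medium libraries. Every CpdA library lay above every medium library, yet the difference was small at 0.06 ± 0.03 (SE, adjusted p = 0.14) and did not pass. With trends of GC content and gene length removed it passed, at 0.12 (adjusted p = 0.000642).

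Around this family, 27 genes of the CCR4-NOT complex and of AU-rich element decay were tested; 6 rose and 4 fell (37.0% called), with a median log2 fold change of 0.01 and a median level of 93.3 CPM. The share lay between the 33.2% of all genes tested and the 52.4% of those of 50 CPM or more. Hnrnpd (AUF1), which binds AU-rich elements, rose by 0.30, whereas Btg2, a CCR4-NOT recruiter, fell by 0.34 and Mapkapk2, the kinase that inactivates tristetraprolin, fell by 0.15. Of 17 transcripts with well-known AU-rich elements 9 rose and 5 fell (82.4% called, against 33.2% of all genes tested), among them Il13 (0.72) and Il4 (0.68), which code for type 2 cytokines, and Ier3 (-0.45). This list was drawn up with earlier results of these data known, so its direction is not independent evidence.

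Members that act on ribosomes or in the nucleolus differed by little between the groups. Zfp598, the ubiquitin ligase that marks collided ribosomes, had 107, 90.2 and 106 CPM in CpdA libraries, against 90.2, 98.3 and 91.4 CPM in medium libraries. CpdA replicate 2 stood apart from the other CpdA libraries, the groups overlapped, and the log2 fold change was 0.10 ± 0.05 (SE, adjusted p = 0.13). It passed without CpdA replicate 2 (0.18), without medium replicate 2 (0.14), with no count filter (0.11) and with GC and length trends removed (0.19).

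Zfp622, a factor for the late steps of the large ribosomal subunit, had 87.2, 86.6 and 93.1 CPM in CpdA libraries, against 94.9, 93.1 and 94.7 CPM in medium libraries (-0.09, adjusted p = 0.071). It passed without CpdA replicate 3 (-0.12) and with GC and length trends removed (-0.14). Zfp330, a nucleolar protein, had 81.5, 81.7 and 78.0 CPM in CpdA libraries, against 81.8, 76.1 and 78.4 CPM in medium libraries (0.02, adjusted p = 0.75). Among 20 partner genes of ribosome rescue and of the large subunit 9 rose and 2 fell (55.0% called), with a median log2 fold change of 0.10. Their median level was 88.8 CPM, and the share called was near the 52.4% of all genes of 50 CPM or more. The export adaptor Nmd3 rose by 0.40, the GTPase Gtpbp4 by 0.23 and the remodelling ATPase Mdn1 by 0.23.

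Zfp91, a ubiquitin ligase that acts on the kinase NIK in human cells, had 174, 185 and 189 CPM in CpdA libraries, against 175, 169 and 168 CPM in medium libraries. It was called higher at 0.09 (adjusted p = 0.034) although the groups overlapped, and it missed the threshold without CpdA replicate 2 (0.08) or 3 (0.07) and without medium replicate 2 (0.09) or 3 (0.08). Zfp451, a SUMO ligase, did not pass (0.05, adjusted p = 0.43), except with GC and length trends removed (0.13).

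Among the general promoter factors Zfp281 was lower. Zfp281 (1:136624901-136630053, GRCm38), which binds GC-rich promoters and restrains pluripotency genes in stem cells, had 125, 129 and 134 CPM in CpdA libraries, against 163, 154 and 161 CPM in medium libraries. The groups lay well apart and it fell by 0.31 ± 0.03 on the log2 scale (SE, adjusted p = 2.6e-09). Its close relative Zfp148 did not pass, with 82.5, 89.0 and 90.1 CPM in CpdA libraries, against 86.7, 82.1 and 87.6 CPM in medium libraries (0.02, adjusted p = 0.73). Zfp143, which binds the ACTACA-containing element counted above, had 42.5 ± 1.51 CPM with CpdA and 44.5 ± 2.23 CPM in medium (SD, n = 3 each; log2 fold change -0.07, adjusted p = 0.30). Zfp384 was higher in every CpdA library, at 57.4, 54.3 and 55.0 CPM, than in any medium library, at 48.6, 51.9 and 52.6 CPM, but at 0.11 it did not pass (adjusted p = 0.077) except with GC and length trends removed (0.16).

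Members of chromatin complexes went both ways. Zfp592 and Zfp687 belong, in human cells, to a module with the reader protein ZMYND8. Zfp592 (7:80993681-81045164, GRCm38) had 76.8, 76.3 and 81.7 CPM in CpdA libraries, against 65.0, 67.4 and 67.3 CPM in medium libraries, which did not overlap, and rose by 0.22 ± 0.04 (SE, adjusted p = 6.9e-05). Zfp687 had 29.1, 33.4 and 28.9 CPM in CpdA libraries, against 31.7, 35.0 and 35.5 CPM in medium libraries, which overlapped. It was called lower at -0.17 (adjusted p = 0.034), but missed the threshold without CpdA replicate 1 (-0.14) or 3 (-0.13), without medium replicate 2 (-0.15) or 3 (-0.14) and with GC and length trends removed (-0.06).

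Zfp609, a partner of the cohesin loader and the Integrator complex, had 122, 120.5 and 121 CPM in CpdA libraries, against 125, 133 and 129 CPM in medium libraries. It was called lower at -0.11 (adjusted p = 0.019), a direction that turned with GC and length trends removed (0.02); the call was also lost without CpdA replicate 3 (-0.10) and without medium replicate 2 (-0.08) or 3 (-0.10). Zfp644, a partner of the methyltransferases G9a and GLP, Zfp217, a subunit of CoREST complexes, and Zfp410, an activator of the Chd4 gene, had log2 fold changes of -0.03, -0.08 and 0.11 and did not pass (adjusted p = 0.77, 0.14 and 0.21). The direction of Zfp217 turned with GC and length trends removed (0.0028).

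Among members that bind RNA, Zfp207 (BuGZ), which also loads Bub3 onto kinetochores, had 274, 259.8 and 261 CPM in CpdA libraries, against 242, 244 and 254 CPM in medium libraries. The groups did not overlap and it rose by 0.09 ± 0.03 (SE, adjusted p = 0.021), though it missed the threshold without CpdA replicate 1 (0.07), without medium replicate 1 (0.08) or 2 (0.08) and with GC and length trends removed (0.04). Zfp830, a splicing factor, had 20.6, 19.7 and 19.6 CPM in CpdA libraries, against 17.1, 18.9 and 15.7 CPM in medium libraries. The groups did not overlap and it rose by 0.20 (adjusted p = 0.038), a call lost without each CpdA replicate in turn (0.18, 0.21 and 0.22 without replicates 1, 2 and 3) and without medium replicate 1 (0.20) or 3 (0.14).

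Zfp106, an RNA-binding protein needed by motor neurons, had 231, 253 and 247 CPM in CpdA libraries, against 255, 258 and 256 CPM in medium libraries. It was called lower at -0.08 (adjusted p = 0.044), but its direction turned with GC and length trends removed (0.02), and the call was lost without CpdA replicate 1 (-0.04) or 3 (-0.09) and without each medium replicate (-0.08 each). Zfp346, which binds paired RNA strands, was higher in every CpdA library, at 20.9, 19.9 and 20.1 CPM, than in any medium library, at 16.4, 19.6 and 17.98 CPM, without passing (0.16, adjusted p = 0.11). It passed without medium replicate 2 (0.23) and with GC and length trends removed (0.20). Zfp318, known for the choice between IgM and IgD messages in B cells, had 26.0 ± 0.663 CPM with CpdA and 26.0 ± 1.65 CPM in medium (SD, n = 3 each; log2 fold change -0.01, adjusted p = 0.94).

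**Figure D4:**
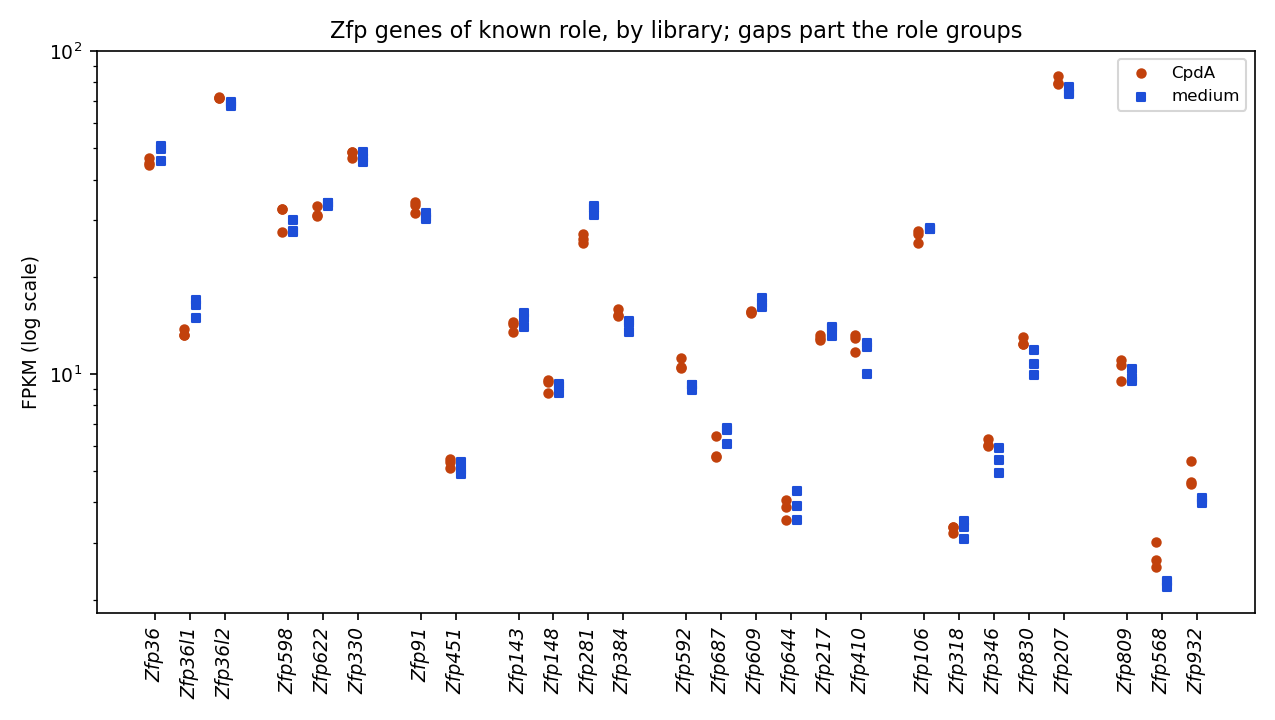
FPKM in each library (vertical, log scale) of the 26 Zfp genes given by role (horizontal); circles are CpdA libraries, squares medium libraries, and gaps separate the roles. Zfp36l1, Zfp281 and Zfp592 show groups that do not overlap, while Zfp330, Zfp148 and Zfp318 show groups that do.

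The KRAB factors with known targets were low in level. Zfp568, which silences a placental transcript of Igf2, had 18.2, 17.4 and 20.7 CPM in CpdA libraries, against 15.7, 15.02 and 15.5 CPM in medium libraries, an increase of 0.27 ± 0.08 (SE, adjusted p = 0.0063). Zfp932, a repressor of endogenous retroviruses, had 13.5, 11.6 and 11.4 CPM in CpdA libraries, against 9.98, 10.4 and 10.2 CPM in medium libraries, an increase of 0.24 ± 0.10 (SE, adjusted p = 0.047). Zfp568 missed the threshold without CpdA replicate 3 (0.20), and Zfp932 without CpdA replicate 1 (0.17) and without medium replicate 1 (0.23), 2 (0.26) or 3 (0.24). Zfp809, which recognises the primer binding site of retroviruses, did not pass, with 13.8 ± 1.05 CPM in CpdA libraries and 13.0 ± 0.579 CPM in medium libraries (SD, n = 3 each; 0.08, adjusted p = 0.54).

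Among the 107 KRAB members 13 rose and 7 fell (18.7% called), and among the 113 others 11 rose and 18 fell (25.7% called). Both shares lay under the 33.2% of all genes tested and the 41.3% of genes of at least 5 CPM. The classes also differed in level, with medians of 12.3 and 27.3 CPM. Of all genes tested, 28.1% were called at 10 to 20 CPM and 38.4% at 20 to 50 CPM. The split between higher and lower calls turned round with a correction for GC content and gene length. With these trends removed, 8 KRAB members rose and 11 fell, and 21 of the others rose and 10 fell. The same correction moved the calls over all genes tested, from 2231 higher and 2252 lower to 2800 higher and 1795 lower. How much of the change among members follows that general shift was not tested. Transcripts of KRAB members had a median GC content of 41.7%, against 49.0% for the other members. Across the 220 members, log2 fold change and GC content had a Spearman rho of -0.15, against -0.16 across the 13428 tested genes with a GC value; these are descriptions across genes, which share their libraries. Without CpdA replicate 3 the KRAB members called were 5 higher and 4 lower, and without medium replicate 2 those higher were 8 and without medium replicate 1 those lower were 4. Among the others, 7 were called higher without CpdA replicate 1 or 3 or without medium replicate 3.

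The machinery that KRAB boxes recruit had a median level of 138 CPM. Of 27 genes for Trim28, its partners and the silencing complexes 17 rose and 1 fell (66.7% called, against 52.4% of all genes of 50 CPM or more and 33.2% of all genes tested), with a median log2 fold change of 0.11. Trim28 itself had 327 ± 13.8 CPM with CpdA and 307 ± 21.5 CPM in medium (SD, n = 3 each; 0.08, adjusted p = 0.11) and passed without CpdA replicate 2 (0.12), without medium replicate 2 (0.14), with no count filter (0.09) and with GC and length trends removed (0.17). Setdb1 rose by 0.13 (adjusted p = 0.017), to 78.0 ± 3.62 CPM in CpdA libraries, against 70.7 ± 1.85 CPM in medium libraries (SD, n = 3 each), a call lost without CpdA replicate 1 (0.10) or 3 (0.13) or medium replicate 3 (0.11). Morc2a, an ATPase of the HUSH pathway, rose by 0.34, the histone chaperone Rbbp7 by 0.28 and Uhrf1, which guides maintenance of DNA methylation, by 0.20.

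Of 30 other genes for proteins with rows of zinc fingers, from the Ikzf, Hivep, Zkscan and Zscan families and their like, 1 rose and 10 fell (36.7% called), with a median log2 fold change of -0.07. The share called was near the 33.2% of all genes tested and the 38.4% of those of 20 to 50 CPM. Ikzf2 (Helios), known from regulatory T cells, fell by 0.51, Hivep2, which binds NF-kB-like sites, by 0.40 and Zkscan17 by 0.22.

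**Figure D5:**
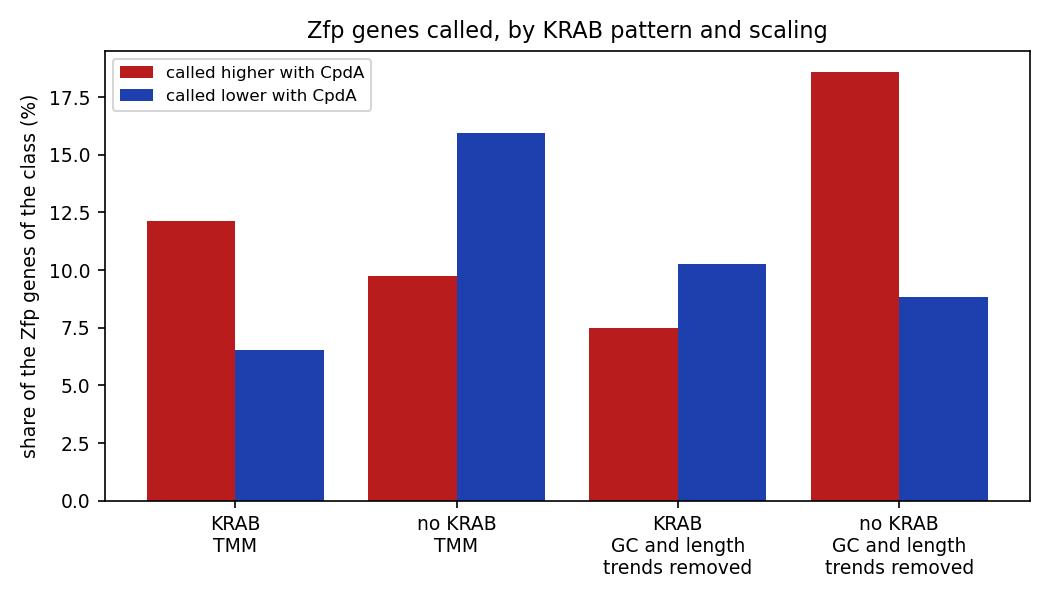
Share of Zfp genes called higher (red) or lower (blue) with CpdA, in percent (vertical), for genes with and without a KRAB pattern (horizontal), under TMM scaling and with GC and length trends removed. Among KRAB genes 13 rose and 7 fell under TMM, and 8 and 11 with the trends removed; among the others the counts were 11 and 18, and 21 and 10. Over all genes tested (not drawn) they were 2231 and 2252, and 2800 and 1795.

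Many KRAB genes arose by tandem duplication and lie side by side. Taking members within 250 kb of each other in groups of 3 or more gave 15 clusters with 86 members, of which 8 rose and 4 fell (13.95% called). Of the 134 members outside clusters 16 rose and 21 fell (27.6% called). Both shares lay under the 33.2% of all genes tested and the 41.3% of genes of at least 5 CPM, and the difference between them was not tested. Level differed as well, with a median of 13.99 CPM in clusters and 22.6 CPM outside. Of all genes tested, 28.1% were called at 10 to 20 CPM and 38.4% at 20 to 50 CPM. Chromosome 7 alone held 54 members. Near-identical neighbours can share reads, and how such reads were counted was not given in the sources used here; values of single cluster members are therefore uncertain.

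A cluster on chromosome 7 (7:29768552-30169727, GRCm38) was the only one with 3 called members. Of its 10 members, 7 have a KRAB pattern; Zfp84 and Zfp568 rose by 0.27 each, and Zfp260 fell by 0.22. Zfp260 had 39.9, 41.4 and 39.1 CPM in CpdA libraries, against 45.5, 45.2 and 49.0 CPM in medium libraries, and the groups did not overlap. The other 7 members had log2 fold changes from -0.15 (Zfp74) to 0.07 (Zfp146), and the neighbours Zfp568 and Zfp260 moved in opposite directions.

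In the other clusters at most 2 members were called. A cluster of 11 on chromosome 17 (17:32771236-33631779) ran from -0.26 (Zfp871, adjusted p = 0.21) to 0.33 (Zfp472), and Zfp472 and Zfp101 (0.21) were called. In a cluster of 9 KRAB genes on chromosome 13 (13:67312998-67729119) 7 had positive log2 fold changes, with a median of 0.14 and a smallest adjusted p of 0.057 (edgeR), for Zfp65. In a cluster of 6 on chromosome 6 (6:47835661-48086593) all log2 fold changes were positive, from 0.02 to 0.25, and only Zfp746 passed. In a cluster of 4 on chromosome 7 (7:4915217-5033138) all were negative, from -0.01 to -0.22, with a smallest adjusted p of 0.057 (edgeR), for Zfp524. These clusters were picked after their values were seen.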

How the data were processed

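The authors deposited a read count for each gene and library, not normalized, per the file headers. They also deposited FPKM; counts, gene lengths and library totals give these values back to a relative error of 1.86e-07. CASAVA 1.8, GRCm38 and mm10 are named in the submitters' processing notes. Aligner, counter, annotation and strand setting were not given in the sources used here. Groups were taken from the labels. Members, lists and tests were chosen with earlier results of these data known. Counts were tested in R 4.3.3 with edgeR 4.0.16 (quasi-likelihood, TMM, robust, filterByExpr with a minimum count of 10 and total of 15), adjusted by the Benjamini-Hochberg method over 13507 genes at 0.05, after a test on simulated data. All 220 members were tested. DESeq2 1.42.0, limma-voom (limma 3.58.1), other scalings, filters, member levels, a replicate block, GC and length trends (splines with 5 degrees of freedom) and each library left out were alternatives. CPM use library totals.

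Finger patterns were searched in proteins translated from GENCODE M21 transcripts (220 of 220 members): C2H2 as C-x-C-x-H-x-H with the usual spacings, KRAB as F-x-x-E-E-W or L-Y-x-x-V-M. Promoters came from a RefSeq table that matched 184 members. Named genes are the 10 highest and 10 lowest log2 fold changes among called members whose groups do not overlap, the 5 highest FPKM, members with a listed role, called members of clusters with 3 or more calls, 3 genes on each side of the CPM threshold, up to 3 called genes of each pathway list with the smallest p, Trim28 and Setdb1. Zfp593, Zfp608, Zfp638, Zfp57, Zfp819, Zfp708 and Zfp36l3 were listed by role but are not members.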

Additional observations from a re-analysis of the deposited data

How the results depend on the processing

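Of 854 values of named genes under the alternatives, 735 kept their direction and side of the threshold, 91 missed the threshold, 15 passed it and 13 turned. The count of Zfp genes called lower, the median log2 fold change, the summed CPM and the count of corepressor genes higher stayed within 1.5 times their value or their spread in the settings run. Zfp genes called higher numbered 14 under DESeq2, and 12 to 20 with a library left out, against 24 in the main fit. Over all genes tested, those called higher also fell, from 2231 to 1812 under DESeq2 and to between 1815 and 2180 with a library left out. Under DESeq2 6 KRAB genes rose and 4 fell. The split by KRAB pattern was added after seeing the data. With GC and length trends removed, 8 KRAB genes rose and 11 fell, and 21 of the others rose and 10 fell. Over all genes tested 2800 rose and 1795 fell in that setting, against 2231 and 2252 in the main fit. With a library left out, KRAB genes higher ran from 5 to 10 and lower from 4 to 10, and the others higher from 7 to 11. The replicate block gave 18 Zfp genes higher and 20 lower, with 7 higher among those without a KRAB pattern. Over all genes tested it gave 1927 higher and 2009 lower. Same-numbered libraries did not deviate together (r of -0.0213, -0.0147 and -0.0006). With 3 libraries in a group and their origin not given, this cannot settle whether the numbers pair the samples. No CpdA library correlated best with the medium library of its own number.

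Directions that turned were those of small differences. With GC and length trends removed log2 fold changes were 0.0153 for Zfp106, 0.00278 for Zfp217, 0.0528 for Zfp318, -0.0537 for Zfp330 and 0.0180 for Zfp609, and with library size alone 0.000462 for Zfp318. With a library left out, values ran from -0.00545 to 0.0602 for Zfp148, from -0.00256 to 0.0481 for Zfp330, from -0.0594 to 0.0351 for Zfp318 and from -0.105 to 0.0412 for Zfp644. The causes were not tested. Removing the trends moved the median of all genes to 0.03, against 0.0004 under TMM.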

Other observations

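Below the level, 81 of the 124 protein-coding Zfp genes had enough counts to be tested, and 5 were called higher with CpdA and 2 lower (8.64%), against 11.7% called of all 3706 genes tested under 5 CPM. Their median log2 fold change was 0.07, and their log2 fold changes spread more widely than those of the members, with an SD of 0.33. Among members of 50 CPM or more 5 rose and 8 fell, and among members of 5 to 10 CPM 4 rose and 1 fell. Of all genes tested, 1187 rose and 1041 fell at 50 CPM or more, and 96 rose and 178 fell at 5 to 10 CPM. The counts of members are small, and the directions by level were not tested.

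Members with 10 or more C2H2 patterns had 9 higher and 12 lower of 111 (18.9% called). Those with 1 to 9 patterns had 15 higher and 10 lower of 102 (24.5% called). Both shares lay under the 33.2% of all genes tested and the 41.3% of genes of at least 5 CPM. Their median levels differed too, at 14.4 and 24.9 CPM, and the difference between the shares was not tested. Zfp931, a KRAB gene named after its values were seen, had the lowest log2 fold change that was not called (-0.52 ± 0.20, SE, adjusted p = 0.062 by edgeR), with 3.60, 7.44 and 6.35 CPM in CpdA libraries, against 8.35, 7.40 and 9.45 CPM in medium libraries. CpdA replicate 1 was low and the groups overlapped.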
